A study of Mus musculus with 48 samples.

Results

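The 8 arrays described here measured cerebellar RNA of mouse line A39 at 4 months of age, 4 from transgenic mice and 4 from nontransgenic controls, out of 48 arrays in the series. They were chosen by the line, age and genotype in the sample labels and by nothing measured. Line A39 carries a transgene for exon 1 of huntingtin (Htt), the protein mutated in Huntington's disease, with 142 glutamines and a nuclear exclusion signal joined to it. Per the series' design text the controls were normal littermates, and lines were profiled at the age when failure on the rotating rod was first seen. Line A39 was profiled at 4 and at 10 months, so this cannot describe both ages. Of the transgenic mice 2 were female and 2 male, and of the controls 3 were female and 1 male. Each array has its own title in the labels, while the sample code of control 2 also stands on another array of the series. Whether each is a separate animal is not stated beside the replicate numbers, so p-values measure the spread between these samples. The promoter of the transgene, the number of founders behind the line and the place of the protein in the cells are not given in the sources used here. A further 3 pairs of groups serve as points of comparison: A39 at 10 months, with 3 transgenic and 3 control arrays, of which 2 transgenic and 1 control are labelled 10.5 months, line A61, with the same construct, at 8 months, with 4 and 4, and line S46, whose 142 glutamines are joined to a nuclear localization signal instead, at 3.5 months, with 4 and 4.

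Huntingtin exon 1 holds the glutamine run whose lengthening causes Huntington's disease, and a nuclear exclusion signal is a short peptide by which a protein is carried out of the nucleus. The cerebellar cortex sends all its output through Purkinje cells, large inhibitory neurons that receive the parallel fibres of granule cells. Glutamate acting on the receptor mGluR1 makes a Purkinje cell produce inositol trisphosphate (IP3), which releases calcium from the endoplasmic reticulum. Calcium-binding proteins such as calbindin buffer it, and pumps return it to the store.

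Values are MAS5 signals, 1 intensity per probe set and array, with every array scaled to the same trimmed mean of about 500.2. A log2 difference is transgenic minus control on log2(signal + 18.7), the added constant being the 10th percentile of all values, so that differences of dim genes are understated. A probe set counts as having risen or fallen where limma's adjusted p (Benjamini and Hochberg, over 7453 tested probe sets) was below 0.05. SE is the standard error of a log2 difference, and SD the standard deviation over arrays.

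Control arrays 4 and 2 need mention before the results. Control array 4 correlated with the other 7 arrays at 0.913 on average over tested probe sets, against 0.936 to 0.953 for the other arrays. The scanner record deposited with control array 2 names the sixth scan day and the second chip lot, whereas those of the other 7 arrays name the first day and first lot. After centring each probe set over all 48 arrays, the values of control array 2 correlated at 0.11 on average with arrays of the first day and at -0.14 with those of the sixth, so its values were used under its label. The sample code it shares stands on the first S46 control at 10 months, whose record names the first day and lot and whose centred values correlated at 0.34 with arrays of the sixth day and at -0.07 with those of the first. The centred values of these 2 arrays correlated at 0.02 with each other. Whether their records were exchanged is not stated in the sources used here. Counts without either array are given beside some of the results they touch. Gapdh ratios of the downstream over the upstream probe set ran from 1.01 to 1.05 in transgenic arrays and from 0.97 to 1.09 in control arrays, and actin ratios from 1.23 to 1.80 in transgenic arrays and from 1.29 to 1.48 in control arrays. Xist and Eif2s3y matched the labelled sex in all 8 arrays.

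The mouse Htt probe sets showed no change past the threshold. The first had 1714, 1801, 1794 and 1969 in transgenic arrays, against 2000, 1759, 2004 and 2002 in control arrays, a log2 difference of -0.09 (SE 0.11, limma adjusted p = 0.806). The other had 618, 564, 758 and 715 in transgenic arrays, against 785, 610, 666 and 564 in control arrays, a difference of 0.02 (SE 0.14). Whether either probe set reads RNA of the transgene is not stated, so they do not check the genotype.

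At 4 months more genes fell than rose in A39 transgenic cerebellum. Among those that fell were 8 Purkinje cell markers, such as Rgs8, Homer3 and Calb1. The falls also held 5 members of a list of immediate early genes and partners, such as Nr4a1. Marcks, Basp1, B2m and Jun, an early gene outside that list, were among those that rose. Of 7453 probe sets, 118 passed the threshold (1.58%), of which 34 were higher (0.456%) and 84 lower (1.13%), and 902 had an unadjusted p below 0.05. The 4 transgenic arrays lay entirely on one side of the 4 controls for 106 of the 118. Over all tested probe sets, groups did not overlap with transgenic arrays above in 3.85% and below in 3.45%, and the median log2 difference was -0.0032. A model fitted to these 8 arrays alone, without the spread of the other groups, called 23 (5 higher, 18 lower). Among the 17 named genes that passed there too were Fam107b, Rgs8, Homer3, Calb1, Inpp5a, Kcnma1, Nab2, Marcks, Basp1 and B2m. With control array 2 left out 109 passed (42 higher, 67 lower), with control array 4 left out 85 (14 higher, 71 lower), with both left out 66 (13 higher, 53 lower), with transgenic array 3 left out 67 (14 higher, 53 lower) and with control array 3 left out 81 (26 higher, 55 lower).

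**Figure D1:**
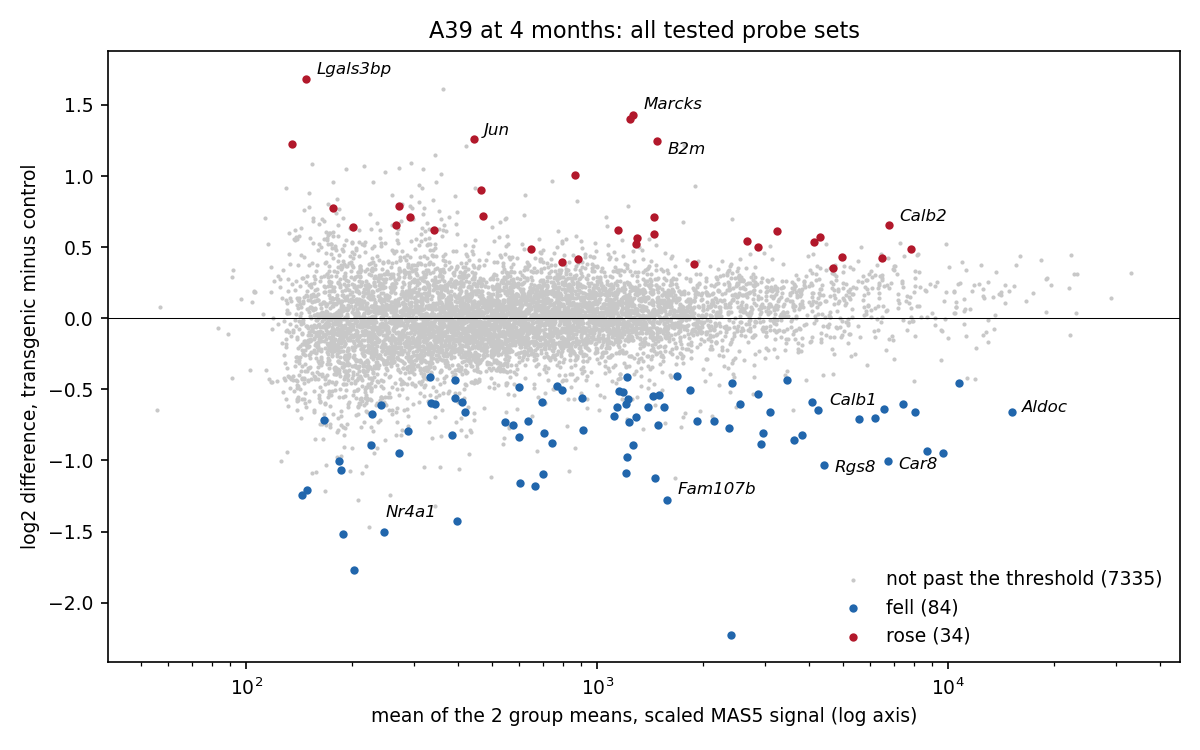
Log2 difference (transgenic minus control, y axis) against the mean of both group means in scaled MAS5 signal (x axis, log scale) for the 7453 tested probe sets of A39 at 4 months. Blue points are the 84 that fell and red points the 34 that rose, at all levels of signal, and grey points did not pass the threshold.

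Purkinje cell markers fell. Of 16 on the array 12 had enough signal to be tested, and 8 fell, 0 rose and 4 did not pass, against 1.12% of all 5639 tested genes lower and 0.461% higher with 1 probe set per gene. This list and those below were chosen with earlier results of these data known, so their shares are descriptions and not tests. All 12 had negative differences, against 50% of all genes, with a median of -0.69 against 0 for all genes. The summed signal of the 12 ran from 28243 to 32575 in transgenic arrays and from 46955 to 50138 in control arrays, with no overlap. In tissue RNA, fewer Purkinje cells and less RNA per Purkinje cell cannot be told apart. With 1 array left out in turn, 5 to 7 of the 12 fell, the fewest without transgenic array 3, control array 1 or control array 3, and the median stayed between -0.74 and -0.60. Without control arrays 2 and 4 together 5 fell, and in the fit to these 8 arrays alone 3 fell.

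Rgs8, a regulator that speeds the switching off of G proteins and is abundant in Purkinje cells, had 3190, 3067, 2788 and 2548 in transgenic arrays, against 6452, 6372, 6104 and 4949 in control arrays. The highest transgenic array lay well below the lowest control, which was control array 4. The log2 difference was -1.04 (SE 0.10, limma adjusted p = 6.17e-09), or 48.8% of control. Homer3, a scaffold that ties mGluR1 to the IP3 receptor, had 799, 842, 660 and 952 in transgenic arrays, against 1476, 1533, 1858 and 1583 in control arrays. The groups did not overlap, and the difference was -0.98 (SE 0.12, limma adjusted p = 7.21e-07). Calb1, the calcium buffer calbindin, had 4498, 4493, 3633 and 4249 in transgenic arrays, against 6905, 7102, 6802 and 6765 in control arrays. Its 4 control values were close together, and the difference was -0.71 (SE 0.09, limma adjusted p = 4.14e-06).

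Car8, a carbonic anhydrase relative that binds the IP3 receptor, had 4620, 5811, 4075 and 3445 in transgenic arrays, against 7359, 8800, 8044 and 11711 in control arrays. Control array 4 was its highest, unlike for Rgs8. The transgenic level was 49.96% of control (SE of the log2 difference 0.21, limma adjusted p = 0.00403). These 4 genes passed with any 1 of the 8 arrays left out. Pcp2, a protein of Purkinje cells that acts on G proteins, had 1516, 1540, 2230 and 1618 in transgenic arrays, against 2808, 2799, 2110 and 4364 in control arrays. Here transgenic array 3 lay above control array 3, the lowest control. The difference was -0.77 (SE 0.19, limma adjusted p = 0.0235), and it was lost on leaving out any of 5 arrays, whereas another Pcp2 probe set gave -0.72 (limma adjusted p = 0.00337).

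Ppp1r17, a phosphatase inhibitor of Purkinje cells, had 2057, 1980, 1750 and 2253 in transgenic arrays, against 3507, 3435, 3247 and 2206 in control arrays. Control array 4 was the only control within the transgenic range. The difference was -0.60 (SE 0.15, limma adjusted p = 0.0197), the call was lost on leaving out any of 4 arrays, and another probe set did not pass (-0.47). Cck, the neuropeptide cholecystokinin, had 623, 591, 373 and 472 in transgenic arrays, against 631, 900, 1248 and 1102 in control arrays, a difference of -0.87 (SE 0.22, limma adjusted p = 0.0306). The closest arrays of both groups nearly met, and the call was lost on leaving out any of 5 arrays.

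Pvalb, the calcium buffer parvalbumin, which interneurons also make, was read by 2 probe sets. The first had 8027, 9880, 8300 and 9728 in transgenic arrays, against 14411, 12544, 13654 and 9223 in control arrays (log2 -0.46, SE 0.12, limma adjusted p = 0.0306), where control array 4 overlapped with the transgenic arrays and leaving out any of 5 arrays lost the call. The other had 926, 982, 745 and 870 in transgenic arrays, against 1631, 1892, 1535 and 1528 in control arrays (-0.89, SE 0.16, limma adjusted p = 0.000692), with no overlap.

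The 4 Purkinje markers that did not pass were also lower. Slc1a6, the glutamate transporter of Purkinje cells, averaged 1961 ± 220 in transgenic arrays and 2825 ± 429 in control arrays (SD, n = 4 each), a log2 difference of -0.52 with limma adjusted p = 0.0592. Doc2b, a calcium sensor of vesicle release, had -0.66 (limma adjusted p = 0.0707), Rora, a nuclear receptor that Purkinje cells need to mature, -0.43 (limma adjusted p = 0.142), and Lhx1, a transcription factor of the lineage, -0.26 (limma adjusted p = 0.365).

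Rora is known to act on Pcp2 and to bind the core AGGTCA, which many other nuclear receptors bind too. A promoter each of Pcp2 and Homer3 that holds the core is therefore shown. They are from RefSeq on build GRCm38, 5′ to 3′, 250 bases before to 50 after the start. They lie at chr8:3624987-3625286 (minus strand) and chr8:70282749-70283048 (plus strand), with AGGTCA or its reverse complement TGACCT in capitals. Bases beside the core, which Rora also reads, were not searched, so the capitals do not mark Rora sites.
Pcp2: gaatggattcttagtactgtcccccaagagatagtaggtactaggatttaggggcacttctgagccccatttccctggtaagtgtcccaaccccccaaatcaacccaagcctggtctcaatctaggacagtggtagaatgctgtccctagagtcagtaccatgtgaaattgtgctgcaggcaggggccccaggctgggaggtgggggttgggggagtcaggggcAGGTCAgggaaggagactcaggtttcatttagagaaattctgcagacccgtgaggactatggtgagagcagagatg
Homer3: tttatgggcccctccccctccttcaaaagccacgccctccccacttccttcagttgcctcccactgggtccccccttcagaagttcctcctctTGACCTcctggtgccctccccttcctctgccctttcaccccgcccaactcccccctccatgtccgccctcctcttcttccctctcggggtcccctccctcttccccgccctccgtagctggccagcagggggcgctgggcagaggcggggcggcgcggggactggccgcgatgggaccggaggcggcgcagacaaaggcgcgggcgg
Of the 8 markers that fell 5 were matched to RefSeq promoters. Homer3's 1 promoter, 3 of 4 of Pcp2 and 1 of 3 of Rgs8 held the core, and those of Pvalb and Cck did not. That is 3 of 5 genes and 5 of 11 promoters, against 16.3% of all 32851 promoters. Promoters of 1 gene are not independent, and the genes were chosen because they fell, so these shares test nothing. The count describes letters and not binding.

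**Figure D2:**
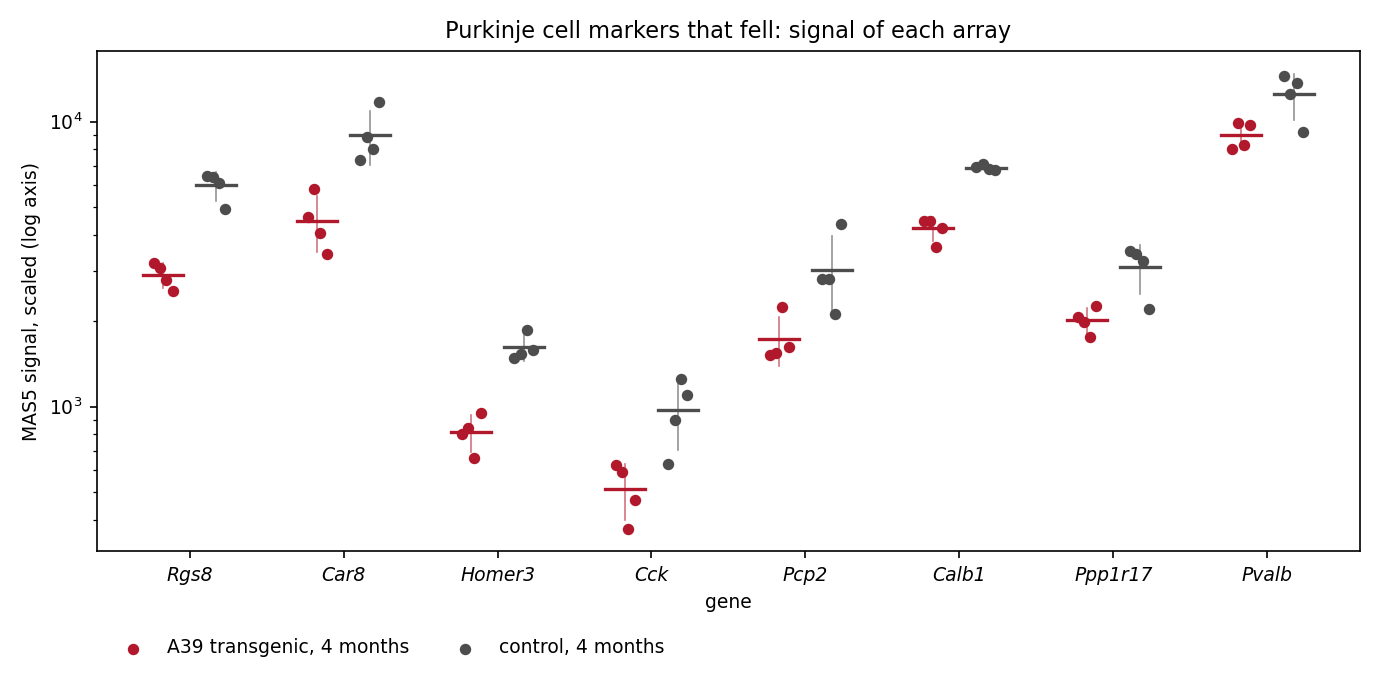
Scaled MAS5 signal (y axis, log scale) of the 8 Purkinje cell markers that fell, 1 point per array with transgenic arrays in red left of control arrays in grey. Horizontal bars are group means and vertical lines ± 1 SD. For Rgs8, Car8, Homer3 and Calb1 the groups do not overlap, and for Pcp2, Ppp1r17 and Pvalb they do.

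Granule cells and interneurons of the cerebellar cortex had 1 called marker each. Of 17 granule cell markers 1 rose and 0 fell, with a median of -0.0036, against 0.461% of all genes higher and 1.12% lower. Of the 17, 12 had negative differences, against 50% of all genes, and 5 positive ones. An unadjusted p below 0.05 was found for 5. Neurod1 was lower in every transgenic array than in any control and did not pass (log2 -0.53, limma adjusted p = 0.0811). Gabra6, the GABA receptor subunit that marks mature granule cells, averaged 12041 ± 1070 in transgenic arrays and 13066 ± 1408 in control arrays (SD, n = 4 each) and did not pass (limma adjusted p = 0.743). The member that rose was Calb2, calretinin, a calcium buffer of granule cells, with 9146, 8074, 7848 and 8116 in transgenic arrays, against 5862, 5672, 5358 and 4285 in control arrays. Its groups did not overlap, and the difference was 0.65 (SE 0.14, limma adjusted p = 0.00569). Of 11 interneuron markers 1 fell, Gad1, an enzyme of GABA synthesis that Purkinje cells also make, with 6065, 6286, 6015 and 5240 in transgenic arrays, against 8589, 8793, 8787 and 9687 in control arrays (log2 -0.60, SE 0.14, limma adjusted p = 0.0139). Of the 11, 10 had negative differences (median -0.36), against 50% of all genes. For 4 all transgenic arrays lay below all controls, against 3.49% of all genes. Their summed signal ran from 11729 to 14229 in transgenic arrays and from 17809 to 18908 in control arrays, without overlap. Most of this sum comes from Gad1 and the GABA transporter Slc32a1, both also made by Purkinje cells. Gad1 averaged 5902 in transgenic and 8964 in control arrays, and Slc32a1 4046 and 5356. Gad1 no longer passed without transgenic array 4 or control array 4.

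In a list of genes of mGluR1 and IP3 signalling and genes tied to it in Purkinje cells, some fell. Of 17 tested 5 fell and 0 rose (median -0.11), against 1.12% of all genes lower. With 1 array left out 3 to 5 fell, and in the fit to these 8 arrays alone 2. Homer3, Car8 and Ppp1r17 are 3 of the 5 and were already counted above as Purkinje markers. Inpp5a, the phosphatase that inactivates IP3, had 2706, 3229, 2575 and 2530 in transgenic arrays, against 5144, 5050, 5359 and 3993 in control arrays. The groups did not overlap, the difference was -0.82 (SE 0.12, limma adjusted p = 2.08e-05), and another probe set gave -0.72 (limma adjusted p = 0.00321). Prkcd, protein kinase C delta, was at 68.7% of control (log2 -0.54, SE 0.13, limma adjusted p = 0.0197), a call lost on leaving out any of 4 arrays. The G protein subunits Gnaq (-0.10) and Gna11 (0.24) and the phospholipase Plcb1 (-0.03), which stand between receptor and IP3, did not pass.

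Calcium pumps, exchangers and buffers had 5 falls and 1 rise among 27 (median -0.13), against 1.12% of all genes lower and 0.461% higher. Calb1, Pvalb and Calb2 were among these, and 1 fell in the fit to these 8 arrays alone. Atp2a2, a calcium pump of the endoplasmic reticulum, had 2338, 2329, 2002 and 1938 in transgenic arrays, against 4102, 4234, 3904 and 2940 in control arrays (log2 -0.80, SE 0.14, limma adjusted p = 0.000438). Its relative Atp2a3, strong in Purkinje cells, had 1677, 1955, 1489 and 1316 in transgenic arrays, against 2977, 2992, 2833 and 1924 in control arrays, where control array 4 fell just below the highest transgenic array. The difference was -0.72 (SE 0.14, limma adjusted p = 0.00156), and another Atp2a3 probe set gave -0.69 and did not pass. Hpcal1, a calcium sensor protein, was at 64.2% of control (-0.64, SE 0.13, limma adjusted p = 0.00281).

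Among 25 potassium channel genes 2 fell and 1 rose (median -0.20), against 1.12% of all genes lower and 0.461% higher. Kcnma1, the calcium-activated BK channel, had 966, 1036, 892 and 1029 in transgenic arrays, against 1416, 1597, 1609 and 1786 in control arrays (log2 -0.70, SE 0.10, limma adjusted p = 1.08e-05), with no overlap. Abcc8, a subunit of ATP-sensitive channels, was at 66.6% of control (limma adjusted p = 0.00628). Kcnk2, a leak channel, rose to 164% (limma adjusted p = 0.0368), and did not pass on leaving out any of 6 arrays. Of 12 GABA and glycine receptor genes only Gabbr1, a subunit of the metabotropic GABA receptor, fell (log2 -0.43, limma adjusted p = 0.0487, not passed on leaving out any of 6 arrays). Of 12 sodium and calcium channel genes and 11 glutamate receptor genes 0 passed by limma, with 2 in each list at an unadjusted p below 0.05. Rgs8 was the only 1 of 27 G protein and RGS genes to pass, and Ppp1r17 the only 1 of 22 genes of cyclic nucleotide signalling.

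**Figure D3:**
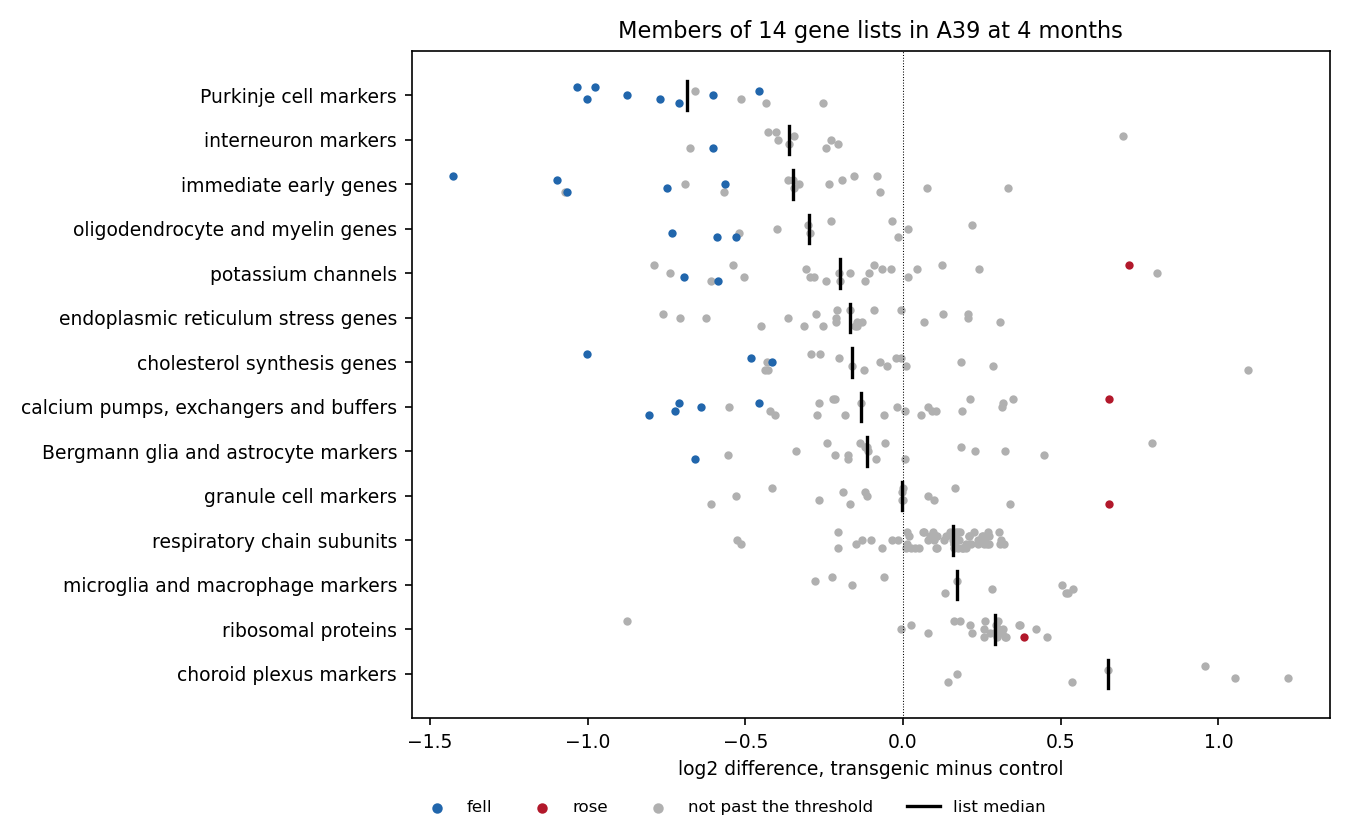
Log2 difference (x axis, transgenic minus control) of each tested member of 14 gene lists, blue where it fell, red where it rose and grey where it did not pass. Black bars are list medians, which run from -0.69 for Purkinje cell markers to 0.65 for choroid plexus markers, where no member passed.

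Immediate early genes are those that neurons transcribe within minutes of activity. The list used here also holds Nab1 and Nab2, partners of the early factor Egr1. It lacks Jun, an early gene that rose (log2 1.26, limma adjusted p = 0.000235) and is given below. The list had 5 falls and 0 rises among 19, against 1.12% of all genes lower. Its members were chosen with earlier results of these data known, so this share describes them and tests nothing. Of the 19, 17 had negative differences (median -0.35), against 50% of all genes. With 1 array left out in turn 3 to 5 fell, the fewest without transgenic array 4, while 3 fell without control arrays 2 and 4, 1 in the fit to these 8 arrays alone, 1 in females and 0 in males. The 5 are Nr4a1 and Nr4a2, nuclear receptors induced by activity, Per1, a clock gene that activity also induces, and Nab1 and Nab2, which bind and repress the early transcription factor Egr1. Promoter sequences of Nr4a1, Nr4a2 and Per1 are shown because activity is known to act on these genes through the cAMP response element, whose core is TGACG. They are from RefSeq on build GRCm38, 250 bases before to 50 after the start of transcription, 5′ to 3′, at chr15:101266596-101266895 (plus strand), chr2:57123954-57124253 (minus strand) and chr11:69098699-69098998 (plus strand), with TGACG or its reverse complement CGTCA in capitals.
Nr4a1: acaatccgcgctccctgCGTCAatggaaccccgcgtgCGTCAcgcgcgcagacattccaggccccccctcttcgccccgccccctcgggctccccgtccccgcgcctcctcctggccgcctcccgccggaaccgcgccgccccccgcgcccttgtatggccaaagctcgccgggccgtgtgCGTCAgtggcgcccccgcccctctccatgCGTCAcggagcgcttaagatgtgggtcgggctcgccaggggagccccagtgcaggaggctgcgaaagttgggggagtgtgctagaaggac
Nr4a2: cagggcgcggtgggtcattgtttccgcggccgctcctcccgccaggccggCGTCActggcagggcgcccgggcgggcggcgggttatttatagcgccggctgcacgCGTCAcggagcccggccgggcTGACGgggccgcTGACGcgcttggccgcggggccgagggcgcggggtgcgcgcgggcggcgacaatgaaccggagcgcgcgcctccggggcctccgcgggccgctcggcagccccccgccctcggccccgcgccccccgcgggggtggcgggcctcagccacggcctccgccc
Per1: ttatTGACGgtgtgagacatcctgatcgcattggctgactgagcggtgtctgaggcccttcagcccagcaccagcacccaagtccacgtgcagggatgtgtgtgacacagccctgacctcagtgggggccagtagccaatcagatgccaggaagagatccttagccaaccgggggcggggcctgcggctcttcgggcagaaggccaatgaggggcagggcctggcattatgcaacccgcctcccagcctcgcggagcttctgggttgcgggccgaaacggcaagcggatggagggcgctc
The core stood 4 times in the Nr4a1 promoter, 4 times in that of Nr4a2 and once in that of Per1, and both RefSeq promoters of Per1 held it. Nab1's promoter held it once and that of Nab2 did not. So 4 of 5 genes and 5 of the 6 promoters had it, against 20.8% of 32851 promoters of 300 bases. Per1 counts with 2 promoters, and the genes were chosen because they fell, so these shares test nothing. A match describes the letters in this window and not a site in use.

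Nr4a1 had 132, 314, 230 and 160 in transgenic arrays, against 466, 723, 388 and 770 in control arrays. All transgenic arrays lay below the controls, and both groups varied widely. The difference was -1.43 (SE 0.30, limma adjusted p = 0.00403), or 37.2% of control. Nr4a2, by the probe set with the smaller p, had 83, 99, 32 and 139 in transgenic arrays, against 214, 175, 227 and 226 in control arrays (log2 -1.21, SE 0.28, limma adjusted p = 0.0138), which did not pass without transgenic array 3. Its other probe set gave -1.07 (limma adjusted p = 0.0326, lost on leaving out any of 6 arrays), and the groups did not overlap on either.

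Nab2 had 466, 446, 440 and 386 in transgenic arrays, against 1220, 1094, 813 and 743 in control arrays. The transgenic values were close together, and the difference was -1.10 (SE 0.17, limma adjusted p = 8.47e-05). Per1 had 412, 514, 508 and 290 in transgenic arrays, against 761, 658, 775 and 692 in control arrays (log2 -0.75, SE 0.17, limma adjusted p = 0.0101), lost without transgenic array 4. It was the only 1 of 15 clock genes to pass, against 1.12% of all genes lower. Nab1 was at 67.7% of control (log2 -0.56, SE 0.12, limma adjusted p = 0.00353).

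Fos, the best known early gene, had 420, 837, 319 and 458 in transgenic arrays, against 1359, 1693, 402 and 1166 in control arrays, and did not pass (log2 -1.07, SE 0.58, limma adjusted p = 0.477). Control array 3 was low among its group for Fos and also for Dusp1, a phosphatase of the same response, with 1017, 1276, 1339 and 1298 in transgenic arrays, against 2193, 2486, 788 and 3628 in control arrays (log2 -0.69, limma adjusted p = 0.502). Egr1, the partner of Nab1 and Nab2, averaged 543 ± 108 in transgenic arrays and 570 ± 74 in control arrays (SD, n = 4 each), a difference of -0.08. Handling and the time of day at dissection are not given in the sources used here, and their part in these values was not tested.

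The named rises with the smallest p were Marcks, Basp1 and Jun. Marcks, a substrate of protein kinase C that binds actin, had 2135, 1611, 1745 and 1885 in transgenic arrays, against 574, 818, 755 and 563 in control arrays. The lowest transgenic array lay well above the highest control, and the difference was 1.43 (SE 0.19, limma adjusted p = 8.12e-06), a 2.69-fold rise. Basp1, a membrane protein of growing axons that resembles it, had 2251, 1604, 1817 and 1546 in transgenic arrays, against 693, 860, 581 and 556 in control arrays (log2 1.40, SE 0.23, limma adjusted p = 0.000223). Another Basp1 probe set differed by 0.22 and did not pass, so the 2 probe sets disagree. Of 28 axon growth genes 2 rose and 0 fell (median 0.03), against 0.461% of all genes higher, with Basp1 counted by its other probe set. The 2 were Marcks and the adhesion molecule Ncam1 (log2 0.50, limma adjusted p = 0.0175, lost on leaving out any of 5 arrays, with 0.08 for another probe set). Gap43, the growth cone protein, had 3395, 2139, 2787 and 2108 in transgenic arrays, against 2017, 2046, 1928 and 1733 in control arrays, with no overlap, and did not pass (0.40, SE 0.16, limma adjusted p = 0.259).

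Jun, an early gene and a transcription factor of stressed and injured neurons, had 657, 521, 613 and 730 in transgenic arrays. Control arrays had 335, 297, 248 and 158. The groups did not overlap, and the difference was 1.26 (SE 0.21, limma adjusted p = 0.000235). It was the only 1 of 22 axon injury and AP-1 genes to pass (median -0.02), against 0.461% of all genes higher. B2m, beta-2 microglobulin, the small chain that MHC class I molecules share, had 1913, 2101, 2265 and 2034 in transgenic arrays, against 968, 1056, 809 and 676 in control arrays (log2 1.24, SE 0.25, limma adjusted p = 0.00302). It was the only 1 of 17 interferon and MHC class I genes to pass, against 0.461% of all genes higher. Of the 17, 13 had positive differences (median 0.15), where 50% of all genes had negative ones. Marcks, Basp1, Jun and B2m passed with any 1 array left out.

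Lgals3bp, a secreted glycoprotein that binds galectins, had 264, 167, 203 and 313 in transgenic arrays, against 47, 77, 64 and 51 in control arrays (log2 1.69, SE 0.45, limma adjusted p = 0.0438). The groups were far apart, yet of the 8 fits with 1 array left out only that without transgenic array 2 kept the call. Acads, a mitochondrial enzyme of fatty acid breakdown, had 206, 205, 215 and 156 in transgenic arrays, against 50, 91, 85 and 71 in control arrays (1.22, SE 0.28, limma adjusted p = 0.0113), which did not pass without control array 1. Another Acads probe set differed by -0.22 and did not pass. Plin2, which coats lipid droplets, was at 164% of control (limma adjusted p = 0.045) and was lost on leaving out any of the 8 arrays.

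**Figure D4:**
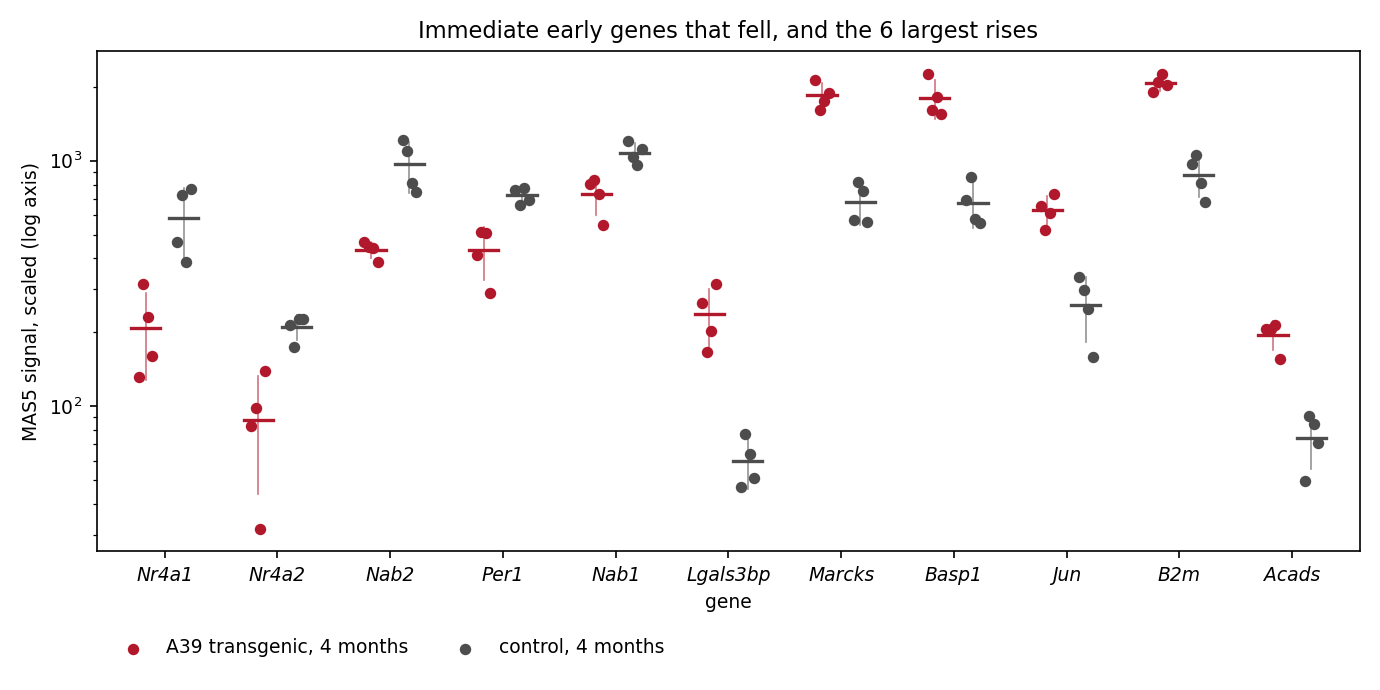
Scaled MAS5 signal (y axis, log scale) of the 5 members of the immediate early gene list that fell and of the 6 largest rises. There is 1 point per array, with transgenic arrays in red left of control arrays in grey. Bars are group means and vertical lines ± 1 SD, and the 6 rises were chosen among genes whose groups do not overlap.

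Other genes fell as steeply. Fam107b had the smallest p, with 913, 1001, 884 and 863 in transgenic arrays, against 2344, 2076, 2382 and 2174 in control arrays (log2 -1.28, SE 0.10, limma adjusted p = 4.64e-12), or 41.3% of control. Both groups were tight, and the gap between them was larger than either. Col18a1, the collagen whose fragment is endostatin, had 31, 102, 91 and 102 in transgenic arrays, against 186, 175, 203 and 264 in control arrays (log2 -1.24, SE 0.24, limma adjusted p = 0.00156). Of its 3 other probe sets 2 fell (-1.50 and -1.77) and 1 did not pass (-0.45).

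Mybpc3, a myosin-binding protein known from heart muscle, had 315, 435, 380 and 456 in transgenic arrays, against 986, 1174, 847 and 708 in control arrays (log2 -1.18, SE 0.22, limma adjusted p = 0.000897). Washc2, a subunit of the endosomal WASH complex, had 1986, 2193, 1732 and 2287 in transgenic arrays, against 3912, 4007, 3845 and 3393 in control arrays (-0.89, SE 0.10, limma adjusted p = 5.83e-07). Both separated the groups without overlap. Nsg1, a protein of neuronal endosomes, was at 59.5% of control (limma adjusted p = 0.000438), Kitl, the ligand of the receptor Kit, at 57.9% (limma adjusted p = 0.000206), and Dap, a gene linked to cell death and autophagy, at 44.8% (limma adjusted p = 0.000223).

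Crhr1, the receptor of corticotropin-releasing hormone, was at 57.1% of control (limma adjusted p = 0.00353) and Cfp, the complement regulator properdin, at 57.8% (limma adjusted p = 0.000618). These 9 genes passed with any 1 array left out. Bcl6, a transcriptional repressor, at 60.2% (limma adjusted p = 0.0197), Fam117a at 56.7% (limma adjusted p = 0.0209) and Prkcz, an atypical protein kinase C, at 53.8% (limma adjusted p = 0.0459) did not pass on leaving out any of 5, 5 and 6 arrays. Another 2 Prkcz probe sets differed by -0.08 and 0.18. The steepest fall of all, chosen after its value was seen, was of a probe set that matches more than 1 gene and is not named here, with 816, 947, 724 and 821 in transgenic arrays, against 4247, 4787, 3898 and 2971 in control arrays (log2 -2.22, SE 0.18, limma adjusted p = 6.08e-11).

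Further rises were smaller. Tmsb10, a thymosin that binds actin, had 3864, 3671, 4030 and 4203 in transgenic arrays, against 2222, 3058, 2411 and 2628 in control arrays (log2 0.62, SE 0.13, limma adjusted p = 0.00353). Alcam, a cell adhesion molecule, had 397, 305, 320 and 306 in transgenic arrays, against 221, 203, 208 and 179 in control arrays (0.66, SE 0.14, limma adjusted p = 0.00514). Both kept the call with any 1 array left out. Astn1, an adhesion protein of migrating granule neurons, was at 201% of control (limma adjusted p = 0.00934, not passed without transgenic array 1 or control array 4). Its 2 female transgenic arrays, 1383 and 1422, were higher than its 2 male ones, 940 and 901.

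Sin3b, a corepressor that recruits histone deacetylases, rose to 187% of control (limma adjusted p = 0.0062) and Cirbp, an RNA-binding protein induced by cold, to 164% (limma adjusted p = 0.0107), and both calls were lost without control array 4. Other probe sets of Sin3b (0.32) and of Meg3 (0.38) did not pass. The translation factor Eif2s2, at 173%, was lost on leaving out any of 3 arrays, and its other probe set differed by -0.04. The long noncoding RNA Meg3, Acyp2, an acylphosphatase, and Slc39a6, a zinc transporter, were at 148%, 153% and 153% and were lost on leaving out any of 6, 6 and 7 arrays. Over all probe sets the rises were fewer on leaving out transgenic array 1 (16), 3 (14) or 4 (22) or control array 4 (14).

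Among glia, 3 oligodendrocyte and myelin genes and 1 astrocyte marker fell. Of 20 markers of Bergmann glia and astrocytes 1 fell and 0 rose (median -0.12), against 1.12% of all genes lower and 0.461% higher. The 1 was Aldoc, an aldolase that Purkinje cells also make, with 10951, 14895, 9301 and 11848 in transgenic arrays, against 22282, 19138, 18969 and 13857 in control arrays (log2 -0.66, SE 0.16, limma adjusted p = 0.0188). Control array 4 lay within the transgenic range, and the call was lost on leaving out any of 5 arrays. Of the 20, 14 had negative differences, against 50% of all genes, and 6 positive ones. An unadjusted p below 0.05 was found for 6. Fabp7 (log2 0.79, limma adjusted p = 0.0932) and Gdf10 (-0.56, limma adjusted p = 0.13) did not pass. Gfap, the filament of reactive astrocytes, averaged 873 ± 106 in transgenic arrays and 694 ± 80 in control arrays (SD, n = 4 each) and did not pass (0.32, limma adjusted p = 0.354).

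Of 12 oligodendrocyte and myelin genes 3 fell and 0 rose (median -0.30), against 1.12% of all genes lower, and for 6 all transgenic arrays lay below all controls, against 3.49% of all genes. Their summed signal ran from 19312 to 23562 in transgenic arrays and from 26887 to 27247 in control arrays, without overlap. In the fit to these 8 arrays alone 0 of the 12 passed, and without control arrays 2 and 4 together 1 fell. Car2, the carbonic anhydrase of oligodendrocytes, had 2085, 2552, 2323 and 2433 in transgenic arrays, against 3322, 3758, 3398 and 3112 in control arrays (log2 -0.53, SE 0.11, limma adjusted p = 0.00298), and kept the call with any 1 array left out. Mal, a myelin lipid-raft protein, was at 66.4% of control (limma adjusted p = 0.00669, lost without transgenic array 3) and Cldn11, the claudin of myelin, at 60.2% (limma adjusted p = 0.029, lost on leaving out any of 4 arrays). Mbp, myelin basic protein, averaged 8598 ± 1207 in transgenic arrays and 10479 ± 490 in control arrays (SD, n = 4 each) and did not pass (-0.29, limma adjusted p = 0.197).

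Of 11 microglia and macrophage markers 0 passed by limma and 4 had an unadjusted p below 0.05. Positive differences were found for 7 (median 0.17), where 50% of all genes had negative ones. Their summed signal ran from 5192 to 5880 in transgenic arrays and from 4454 to 5080 in control arrays, without overlap. Choroid plexus markers varied from array to array within both groups. Ttr, transthyretin, had 204, 2932, 2522 and 3617 in transgenic arrays, against 185, 2659, 1866 and 182 in control arrays, and Kl, which the same tissue secretes, had 12, 312, 275 and 314 in transgenic arrays, against 6, 262, 210 and 25 in control arrays. Transgenic array 1 and control arrays 1 and 4 were low for both genes. All 7 choroid plexus markers had positive differences (median 0.65), where 50% of all genes had negative ones. By limma 0 passed, with 2 at an unadjusted p below 0.05. Their summed signal ran from 3552 to 10312 in transgenic arrays and from 3820 to 8288 in control arrays, and their part in the other results was not tested. Markers of vessels (14 tested, median 0.08), of the meninges with their fibroblasts (14, -0.02), of blood (5, -0.07) and of the adjoining brainstem or midbrain (4, -0.05) gave 0 calls by limma, with 3, 2, 0 and 0 at an unadjusted p below 0.05.

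Cholesterol synthesis genes had 3 falls and 0 rises among 19 (median -0.16), against 1.12% of all genes lower. Msmo1, a sterol oxidase, had 156, 169, 141 and 36 in transgenic arrays, against 270, 240, 207 and 255 in control arrays (SE of the log2 difference 0.26, limma adjusted p = 0.0389), with transgenic array 4 far below the rest. Idi1, an isoprenoid isomerase, was at 71.6% of control (limma adjusted p = 0.0407) and Ebp, a sterol isomerase, differed by -0.41 on the log2 scale (limma adjusted p = 0.0341). With 1 array left out in turn 0 to 2 of the 3 passed, and 0 without transgenic array 3 or 4 or control array 2 or 3.

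Systems that handle damaged protein showed few calls, where 0.461% of all genes rose and 1.12% fell. Of 44 heat shock proteins and chaperones only Hspa2, a relative of the major heat shock protein, passed, at 156% of control (limma adjusted p = 0.0426, lost on leaving out any of 5 arrays), and the median was -0.0037. Of 23 endoplasmic reticulum stress genes 0 passed (6 at an unadjusted p below 0.05) and 18 had negative differences (median -0.17), against 50% of all genes. For 5 all transgenic arrays lay below all controls, against 3.49% of all genes. The summed signal of the 23 ran from 18724 to 21273 in transgenic arrays and from 21343 to 26074 in control arrays, without overlap. Of 32 proteasome subunits 0 passed (2 at an unadjusted p below 0.05). Positive differences were found for 28 (median 0.13), where 50% of all genes had negative ones. The summed signal of the 32 ran from 50710 to 53099 in transgenic arrays and from 42842 to 51210 in control arrays. The groups overlapped, with control array 4 the lowest. Of 37 ubiquitin and autophagy genes Uchl1, a ubiquitin hydrolase of neurons, was the only 1 to pass (log2 0.54, SE 0.13, limma adjusted p = 0.0188, lost on leaving out any of 4 arrays). Lysosomal genes (35 tested, median 0.14) gave 0 calls, with 9 at an unadjusted p below 0.05. Positive differences were found for 26, where 50% of all genes had negative ones. The summed signal of the 35 ran from 66915 to 73192 in transgenic arrays and from 56330 to 67069 in control arrays. Here too the groups overlapped, and control array 4 was the lowest.

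Most ribosomal proteins and respiratory chain subunits had positive differences, and few passed. Of 26 ribosomal proteins 24 had positive differences (median 0.29, from -0.87 to 0.46), where 50% of all genes had negative ones. For 10 all transgenic arrays lay above all controls, against 4.17% of all genes. Control array 4 had the lowest summed signal, 103071, with 123486 to 136841 in the other controls and 141876 to 161305 in transgenic arrays. Without control array 4 the list median was 0.22, the lowest with 1 array left out. Only Rpsa, a protein of the small subunit, rose (log2 0.38, SE 0.10, limma adjusted p = 0.0253, lost on leaving out any of 4 arrays). Related copies of ribosomal protein genes can share probes. Of 64 respiratory chain subunits 54 had positive differences (median 0.16), where 50% of all genes had negative ones. The summed signal of the 64 ran from 221577 to 244992 in transgenic arrays and from 179962 to 228423 in control arrays. The groups thus overlapped, and control array 4 was the lowest. None of the 64 passed, with 10 at an unadjusted p below 0.05. Glycolysis and citrate cycle genes had a median of 0.08 and 1 fall among 41, Aldoc, and antioxidant and metallothionein genes a median of -0.0077 and 0 calls among 32. Of 37 histones and chromatin regulators 2 rose, against 0.461% of all genes. They were Sin3b and Hmgb3, a chromatin protein at 132% of control (limma adjusted p = 0.0398, lost on leaving out any of 6 arrays). Of 48 splicing and RNA-binding genes 1 rose, Cirbp.

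Of 15 genes known to fall in the striatum in Huntington's disease 1 fell here, Penk, the precursor of enkephalin, with 2951, 3909, 3348 and 2942 in transgenic arrays, against 6951, 5147, 4718 and 4083 in control arrays (log2 -0.65, SE 0.15, limma adjusted p = 0.016, lost on leaving out any of 3 arrays), and the list median was -0.0038. Over all tested genes 1.12% fell. Another Penk probe set differed by 0.05. Of 29 huntingtin partners and polyglutamine disease genes (median -0.07), 29 neurotrophins, growth factors and receptors (-0.006), 33 synaptic vesicle and release genes (-0.01), 27 p53 targets and cell death genes (-0.01) and 12 complement and MHC class II genes (0.09), 0 passed by limma, with 7, 3, 3, 1 and 5 at an unadjusted p below 0.05.

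The later age of A39 gives the same measure in other mice, where 1.89% of all probe sets passed. Of the 84 probe sets that fell at 4 months 81 had negative differences at 10 months, against 50.1% of all probe sets, and 55 fell there too (65.5% of the 84 and 57.9% of the 95 that fell at 10 months), against 1.27% of all. Of the 34 that rose, 33 had positive differences at 10 months, against 49.9% of all, and 9 rose there (26.5% of the 34 and 19.6% of the 46 that rose at 10 months), against 0.617% of all. Marcks had 1918, 1741 and 1247 in transgenic arrays at 10 months, against 388, 543 and 676 in controls (log2 1.59, limma adjusted p = 1.19e-05), and Nab2 fell by 1.66 on the log2 scale (limma adjusted p = 4.2e-07).

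No probe set passed the test of the difference between both effects, transgenic minus control at 4 months against the same at 10 months (limma, 259 of 7453 at an unadjusted p below 0.05). The smallest p belonged to Ackr1, a chemokine receptor of small vessels, with log2 differences of -0.10 at 4 months and -1.14 at 10 months, to Zbtb16, a transcription factor, with -0.62 and 1.35, to Cldn5, a claudin of vessels, with 0.31 and -0.69, and to Strn, striatin, with -0.22 and 0.76. The smallest adjusted p was 0.291, so these are values that did not pass. B2m, Lgals3bp, Per1 and Nr4a1, which passed at 4 months, had 0.28, 0.15, 0.05 and -0.52 at 10 months and did not pass there, but their difference between ages did not pass either.

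In line A61, which carries the same construct, 0.255% of all probe sets passed at 8 months. Of the 84 that fell in A39 at 4 months 74 had negative differences, against 51.2% of all probe sets, and 12 fell in A61 (14.3% of the 84 and 80% of the 15 that fell in A61), against 0.201% of all. Of the 34 that rose, 29 had positive differences, against 48.8% of all, and 2 rose (5.88% of the 34 and 50% of the 4 that rose in A61), against 0.0537% of all. Rgs8 in A61 had 4140, 3409, 4533 and 3418 in transgenic arrays, against 6629, 6382, 6731 and 6080 in controls (log2 -0.74, limma adjusted p = 4.33e-05), and Calb1 had 4921, 4908, 5172 and 5267 in transgenic arrays, against 6763, 6751, 6671 and 7078 in controls (-0.43, limma adjusted p = 0.0291).

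The test of A39 at 4 months against A61 at 8 months gave 0 calls (limma, 288 at an unadjusted p below 0.05). The smallest p were those of Fam107b, with log2 differences of -1.28 in A39 and -0.69 in A61, of B2m, with 1.24 and -0.24, of Jun, with 1.26 and 0.05, and of Cfp, with -0.79 and 0.0059, and the smallest adjusted p was 0.393. Age and line differ together here and cannot be told apart.

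Against line S46, with the nuclear localization signal, at the nearest age of 3.5 months, the effects did differ. Line, signal and age differ together in this comparison and cannot be told apart. In S46 at 3.5 months 0 of 7453 probe sets passed (limma, 835 at an unadjusted p below 0.05), and the 84 that fell in A39 had a median of 0.06 there, against -0.71 in A39. Of the 84, 31 had negative differences in S46, against 50.1% of all probe sets, and of the 34 that rose in A39 20 had positive ones, against 49.9% of all. The difference between both effects passed for 25 probe sets (0.335%), of which 23 were lower in A39 (0.309%) and 2 higher (0.0268%), and 22 of the 25 were among the falls of A39. A fit to the 4 groups alone called 6.

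Rgs8 in S46 had 5734, 5170, 6341 and 6060 in transgenic arrays, against 5457, 5685, 5932 and 5147 in controls. The groups overlapped, and the A39 effect was lower than that of S46 (difference of effects -1.10 on the log2 scale, limma adjusted p = 9.05e-06). Calb1 in S46 had 7492, 7266, 7986 and 8197 in transgenic arrays, against 5847, 7404, 7327 and 6961 in controls (difference of effects -0.88, limma adjusted p = 0.00011). Fam107b had 2309, 2084, 2070 and 2286 in S46 transgenic arrays, against 2046, 2252, 2090 and 2327 in controls (difference of effects -1.28, limma adjusted p = 1.04e-07).

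Inpp5a (difference of effects -1.03, limma adjusted p = 0.000462), Kcnma1 (-0.78, limma adjusted p = 0.00125) and Rmdn3, a protein of contacts between mitochondria and the endoplasmic reticulum (-1.003, limma adjusted p = 0.000544), also passed. The other Inpp5a probe set did not pass (-0.65, limma adjusted p = 0.2). Rmdn3 itself fell in A39 at 4 months to 65.8% of control. Rora had log2 differences of -0.43 in A39 and 0.44 in S46, and neither passed. The difference between its effects did (-0.88, limma adjusted p = 0.0292). Nr4a1, with a difference of effects of -1.57, and Marcks, with 1.04, did not pass (limma adjusted p = 0.0872 for each). The only named gene higher in A39 by this test was Fkbp5, an immunophilin induced by glucocorticoids. It had 200, 178, 230 and 176 in A39 transgenic arrays, against 131, 116, 109 and 95 in A39 controls, and 66, 75, 60 and 150 in S46 transgenic arrays, against 135, 173, 220 and 199 in S46 controls (difference of effects 1.67, limma adjusted p = 0.0186). Its difference in A39 alone did not pass (0.71, limma adjusted p = 0.225).

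**Figure D5:**
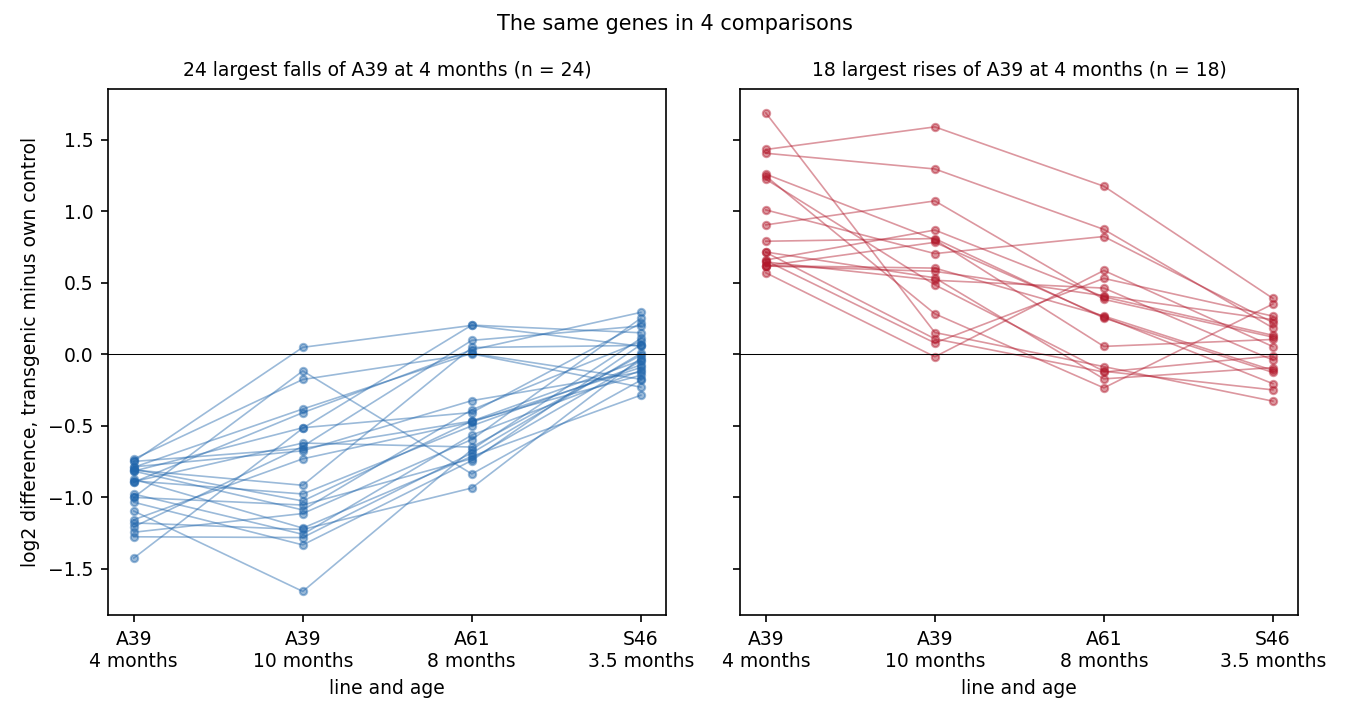
Log2 difference (y axis, transgenic minus the line's own control) of the 24 largest falls (left) and the 18 largest rises (right) of A39 at 4 months, with lines that join each gene's value to those in A39 at 10 months, A61 at 8 months and S46 at 3.5 months (x axis). The genes were chosen on the first column, and in S46 the falls lie between -0.29 and 0.29.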

How the data were processed

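Cerebellar RNA was measured on Affymetrix MG-U74Av2 arrays. The deposited table holds 1 intensity per probe set and array, made by the authors with MAS5 per the submitters' processing notes, which give no version. Values are linear, and the 2% trimmed mean lay between 500.2 and 500.27 in every array, so the arrays had been scaled. The deposited scanner records (other text fields) showed 6 days of scanning and 2 lots of chips. Without detection calls, signal over background was not assessed, and the number of arrays limits the precision.

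In limma 3.58.1 under R 4.3.3, each array was brought to 1 trimmed mean and log2(value + 18.7) was taken, 18.7 being the pseudocount. Of 12488 probe sets, 66 Affymetrix controls were left out and those with a mean signal at or above the 40th percentile over 48 arrays were tested. A model with a mean for each of 14 groups was fitted to all 48 arrays (lmFit, eBayes, 34 residual and 3.73 prior degrees of freedom), tests were two-sided, and each comparison's p-values were adjusted after Benjamini and Hochberg. The platform's annotation gave the symbols (11251 probe sets listed, 10855 with 1 symbol, 396 with several), and 10839 were matched to RefSeq by gene identifier. Lists used the probe set of highest mean signal per gene.

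Named genes were the 18 largest rises and 24 largest falls past the threshold whose groups did not overlap (1 symbol, not sex-linked), up to 6 called members of each list, up to 6 genes per direction of each difference test or the 4 smallest p where none passed, and Htt. Members and lists were chosen with earlier results of these data known. Each array was left out in turn, and other scalings, pseudocounts, filters, weights, sex, scan day and replicate number were tried. The procedure was tested on simulated data.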

Additional observations from a re-analysis of the deposited data

Results flagged for a closer look

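In 12 of 150 groups of 4 arrays, 1 array lay far from the other 3, where chance alone gives about 1 in 20. In transgenic array 4 Acads had 156 (the others 205 to 215), Dap 204 (407 to 450), Msmo1 36 (141 to 169) and Cldn11 286 (434 to 464). In transgenic array 2 Hspa2 had 203 (258 to 264) and Ncam1 2958 (3440 to 3528). In transgenic array 3 Slc39a6 had 524 (371 to 391) and Pcp2 2230 (1516 to 1618), and in transgenic array 1 Col18a1 had 31 (91 to 102). In control array 4 Ppp1r17 had 2206 (3247 to 3507) and Atp2a3 1924 (2833 to 2992), and in control array 2 Htt had 1759 (2000 to 2004).

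The difference between the effects of A39 at 4 months and S46 at 3.5 months passed limma's adjusted test for 12 named genes. On the log2 scale it was -1.50 for Col18a1, -1.28 for Fam107b, -1.21 for Nab2, -1.10 for Rgs8, -1.03 for Inpp5a, -1.003 for Rmdn3, -0.88 for Calb1, -0.86 for Homer3, -0.81 for Washc2, -0.78 for Kcnma1, -0.74 for Car2 and 1.67 for Fkbp5. The other Col18a1 probe sets did not pass (-1.26, -1.67 and -0.23, limma adjusted p = 0.259, 0.342 and 0.874). Nor did the other Inpp5a probe set (-0.65, limma adjusted p = 0.2). Rora, given above as a list member, passed too (-0.88, limma adjusted p = 0.0292).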

How the results depend on the processing

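The count of 118 calls lay between 67 and 112 with 1 array left out in turn, the lowest without transgenic array 3. It was 23 in a fit to the 8 arrays alone, 202 with array weights, 66 without control arrays 2 and 4 (chosen after seeing the data), 21 in females only and 21 in males only, the last with a single control whose spread is assumed to be that of the other groups. Under quantile scaling, pseudocounts of 1 and 100, other filters, a trend in eBayes, sex as a term and scan day as a term it lay between 90 and 132. With scan day as a term and the records of the 2 arrays of 1 sample code exchanged (also chosen after seeing the data) it was 118. The labels do not say what a shared replicate number means. Deviations of same-numbered transgenic and control arrays correlated at 0.15, -0.01, 0.15 and 0.14, against at most 0.02, 0.10, 0.05 and 0.03 with a control of another number, so 3 of 4 transgenic arrays correlated best with their own number, a hint from the data and not the design. The replicate block gave 91 calls, 49 of the 68 named calls passed with it, and 6 of the 12 Purkinje markers fell, without Pcp2 (limma adjusted p = 0.13) and the first Pvalb probe set (0.098). Of those 68, 32 passed in all 8 fits that lacked 1 array and 7 under every alternative run, and no named gene that passed changed direction under any. The 25 differences from S46 were 46 with array weights and 6 in a fit to their own groups. The 0 differences from A39 at 10 months were 3 with array weights, and the 0 from A61 were 1 without a filter and 2 with array weights. The cause of these changes was not tested, except that fewer arrays or probe sets entered where so stated. Signal over background could not be assessed.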
